A study of Homo sapiens with 6 samples.

Results

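Histone methyltransferases, histone demethylases and Polycomb subunits were compared across 3 multiple myeloma cell lines, ARP1, OCI-MY5 and OPM2. The list held 44 genes, and each was represented by the brightest probe set annotated to that gene alone. Of these, 40 genes had such a probe set, and all 40 were bright enough to be tested, among 12067 tested genes of 19775 named on the array. BMI1 was read only by a probe set it shares with the readthrough transcript COMMD3-BMI1, and RNF2, CBX8 and ASH1L were not analysed here. Each line had been stained with a CD24 antibody and sorted by flow cytometry into CD24+ and CD24- cells, and the labels name no drug or genetic treatment. Each line and fraction was hybridised to 1 array, which gave 6 arrays, 3 per fraction and 2 per line. CD24+ cells are described in the labels as the cancer stem cell population, and the question of the series was how they differ from CD24- cells.

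Histone methylation is written by methyltransferases and removed by demethylases, and its effect depends on the lysine that carries it. Methylation of H3K4, H3K36 and H3K79 is found at active genes, and methylation of H3K9 and H3K27 at silent ones. Polycomb repressive complex 2 (PRC2) writes H3K27 methylation, and Polycomb repressive complex 1 (PRC1) reads it and ubiquitinates histone H2A. In myeloma this balance is known for NSD2, an H3K36 dimethyltransferase that the translocation t(4;14) places under immunoglobulin enhancers. OPM2 is a line with that translocation.

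Values are MAS5 intensities, a linear measure of probe brightness in which 1 gene can be compared between arrays but not with another gene. Differences are given as log2(intensity + 16), so that they understate changes of dim genes. The 2 arrays of a line are its CD24+ and CD24- cells, listed in that order throughout, and they served as the replicates of the line. In such bulk RNA, fewer cells that express a gene and less RNA per cell cannot be told apart. No label says that any array came from a repeated culture, so the p-values between lines measure only the spread between the sorted fractions. A difference passed the threshold at a limma adjusted p below 0.05 over all tested genes.

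The OPM2 CD24+ array stood apart from the others. Its median intensity was 135 against 69.0 to 84.2 on the other arrays, and its spike-in controls had a geometric mean of 37362 against 6175 to 7399. The ratio of 3′ to 5′ ACTB signal, which rises as RNA is degraded or shortened, was 2.63 and 2.47 in ARP1, 9.36 and 23.2 in OCI-MY5, and 27.1 and 7.54 in OPM2. All 10 plasma cell markers were above the brightness limit in these cells, with a summed intensity of 152723 and 155782 in ARP1, 115241 and 111498 in OCI-MY5, and 290908 and 214435 in OPM2. Of 25 measured markers of T and NK, myeloid, B, stromal, endothelial and erythroid cells, 10 were bright enough to be tested, and 4 of these differed in OPM2. GNLY was bright in ARP1, at 5215 and 6859, and HBB in OPM2, at 2298 and 1792, while PAX5 was lower and PECAM1 higher in OPM2. Summed over their lists, the T and NK markers reached 5511 and 7101 in ARP1 and at most 699 elsewhere, the erythroid markers 2385 and 1796 in OPM2 and at most 282 elsewhere, and the myeloid markers 188 to 870 over the 6 arrays. The 6 tested proliferation genes gave no difference past the threshold in OPM2. What part these arrays and markers had in the results on histone genes was not tested. CD24 itself lay below the brightness limit on each of its 6 probe sets, at 1.69 to 140.3, so the sort has no check in these RNA values.

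OPM2 differed from the other lines in a minority of the enzymes, in both directions. KDM5B, an H3K4 demethylase, fell 9.75-fold in OPM2, to a level near that of negative control probes. KDM4B, a demethylase of H3K9 and H3K36, rose 3.30-fold on the probe set used, and less or not at all on its other bright ones. In all, 12 of 40 members passed the threshold in OPM2 against the mean of ARP1 and OCI-MY5, 6 higher and 6 lower. That is 30.0% of the members beside 30.2% of all genes tested, so the share is near the background and is not a result about this class of genes. Among all genes 12.7% passed as higher and 17.5% as lower. SETD1A, among the 6 higher members, was bright enough to be tested only through its OPM2 arrays. The median difference of the members was 0.076 on the log2 scale and that of all tested genes -0.0020. Both OPM2 arrays lay above the other 4 arrays for 10 members, beside 21.3% of all genes, and below them for 11, beside 25.3%. Together these were 52.5% of the members and 46.6% of all genes. The line took a median of 86.1% of a member's sum of squares, and the CD24 fraction 3.50%, beside 77.5% and 4.76% for all genes.

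**Figure D1:**
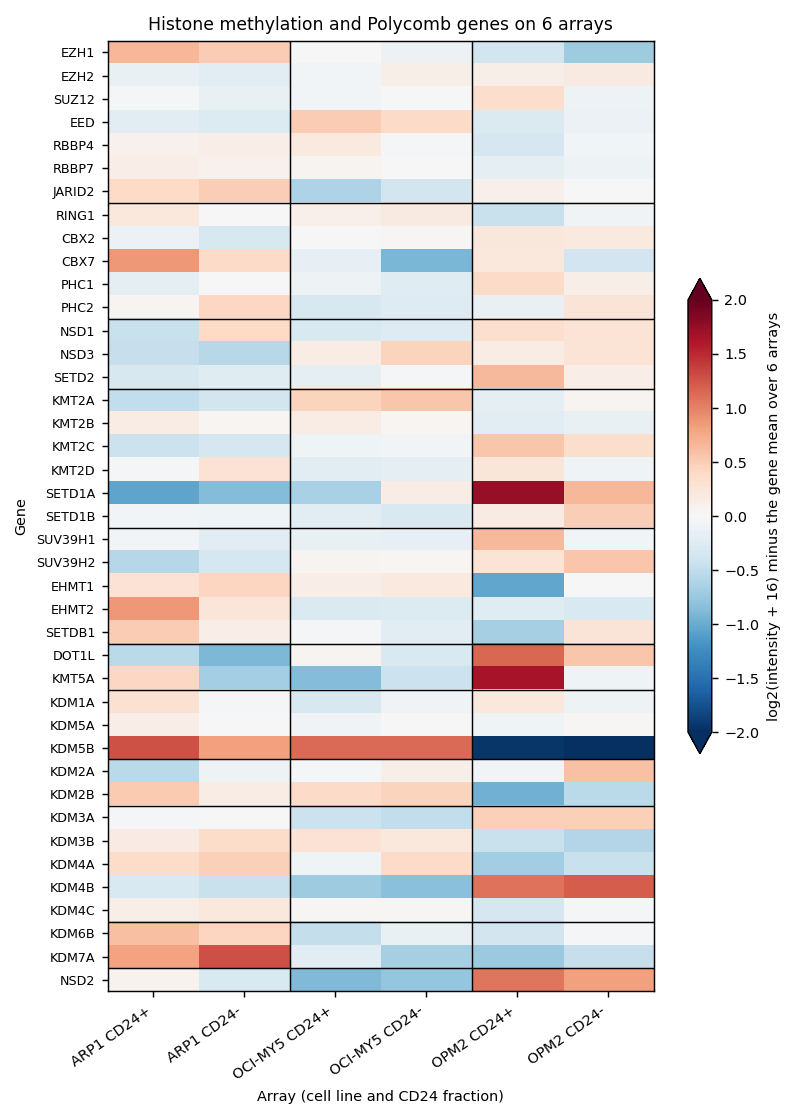
Levels of the 40 measured members and NSD2 on the 6 arrays, as log2(intensity + 16) minus the mean of the gene over the arrays (red higher, blue lower, colours end at 2 and -2). Horizontal lines separate the groups by mark written or erased, vertical lines the cell lines. KDM5B is the darkest row in OPM2, and KDM4B and SETD1A are red there in both fractions.

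By class, the members held 18 methyltransferases, 12 demethylases and 10 other Polycomb subunits. Of the methyltransferases 5 passed the threshold in OPM2, 4 higher (KMT2C, SETD1A, SUV39H2 and DOT1L) and 1 lower (EZH1), with a median difference of 0.38. SETD1A was bright enough to be tested only through its OPM2 arrays, so its call as higher there is not independent of the brightness limit. Of the demethylases 7 passed, 2 higher (KDM4B and KDM3A) and 5 lower (KDM5B, KDM2B, KDM3B, KDM4A and KDM7A), with a median difference of -0.29. These shares were 27.8% and 58.3%, beside 30.2% of all genes, and whether the classes differ was not tested. None of the 10 other Polycomb subunits passed.

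**Figure D2:**
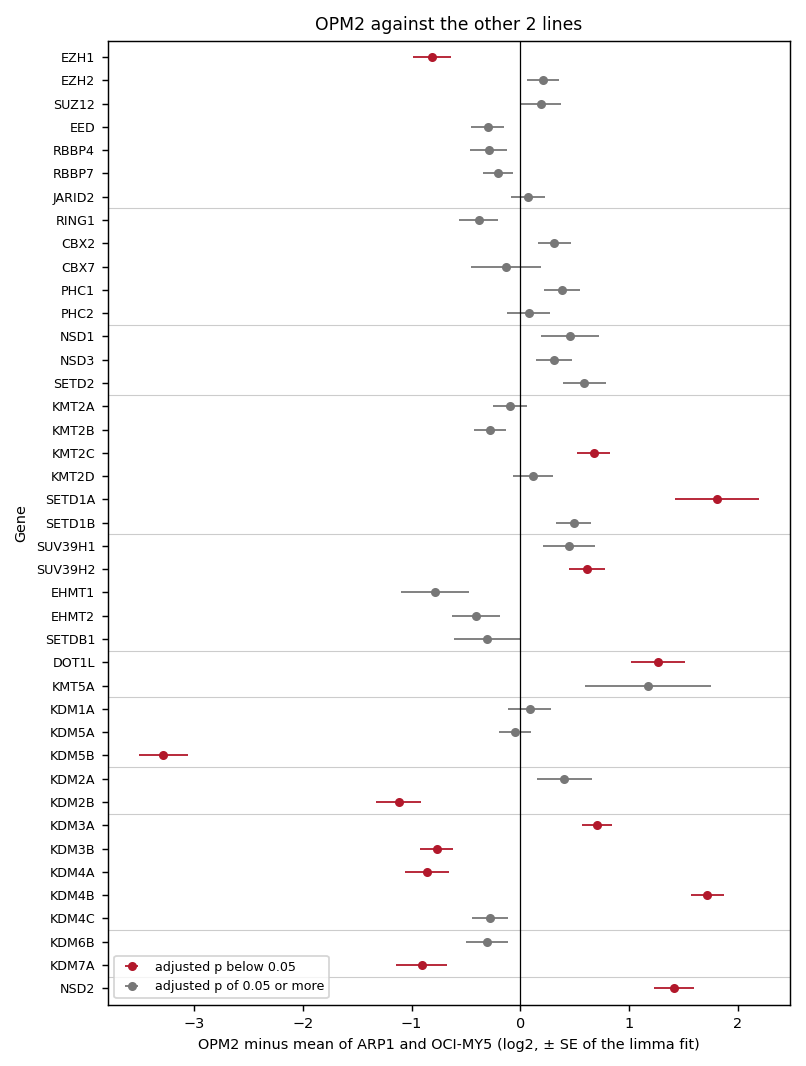
Difference of OPM2 from the mean of ARP1 and OCI-MY5 for each member and NSD2, in log2 with the standard error of the limma fit as bars. Red points passed the threshold and grey points did not; KDM5B lies farthest left at -3.28 and SETD1A farthest right at 1.81.

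How many members passed depended on the arrays used. KDM5B and KDM4B passed with each of the 6 arrays left out in turn. Without the ARP1 CD24+ array these were the only members left, and without the ARP1 CD24- array KDM2B was the third. Without the OCI-MY5 CD24+ array KDM4A joined them, and without the OCI-MY5 CD24- array SETD1A did, which made 3 each. The share of all genes past the threshold was between 14.8% and 16.3% in these 4 fits. Without the OPM2 CD24+ array, the one with the raised spike-in signal, 8 members passed: SUV39H2, KDM3A, SETD1B and KDM4B higher, KDM2B, KDM3B, EZH1 and KDM5B lower, beside 28.5% of all genes. Without the OPM2 CD24- array 14 passed, beside 39% of all genes. In these last fits OPM2 has 1 array, and it is assumed to vary as much as the ARP1 and OCI-MY5 pairs, which alone give the spread. Within the CD24+ and within the CD24- arrays the OPM2 difference had 1 sign in 33 of 40 members, beside 75.5% of all genes.

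NSD2 (chr4:1871393-1982192, GRCh38.p14) served as the reference point for OPM2. Its intensity was 4454 and 3436 in ARP1, 2303 and 2466 in OCI-MY5, and 8911 and 7508 in OPM2. Both OPM2 arrays were above the other 4, by 1.42 ± 0.19 (log2, SE; limma adjusted p = 0.006). Its 6 bright probe sets differed by -0.016 to 2.87, and 5 of them were higher in OPM2. FGFR3, the other gene brought to the immunoglobulin locus by t(4;14), was also higher in OPM2, by 7.90. The NSD2 difference was 1.47 among CD24+ arrays and 1.36 among CD24- arrays, and it passed the threshold with each array left out in turn.

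The other H3K36 methyltransferases did not pass the threshold in OPM2. SETD2, which writes H3K36 trimethylation behind elongating RNA polymerase, measured 1088 and 1148 in ARP1, 1185 and 1314 in OCI-MY5, and 2136 and 1496 in OPM2. Both OPM2 arrays were highest, and the difference was 0.59 ± 0.20 (log2, SE; limma adjusted p = 0.080). It was 0.90 among CD24+ arrays and 0.28 among CD24- arrays. NSD1, a paralogue of NSD2, measured 142 and 268 in ARP1, 158 and 165 in OCI-MY5, and 258 and 244 in OPM2, and the ARP1 arrays spanned both OPM2 values. NSD3, the third NSD enzyme, measured 1386 and 1291 in ARP1, 2108 and 2598 in OCI-MY5, and 2108 and 2305 in OPM2. ARP1 was lowest for NSD3, while OPM2 lay within the range of OCI-MY5. The OPM2 difference was 0.31 for NSD3 (limma adjusted p = 0.209) and 0.46 for NSD1 (0.244). Other bright probe sets of these genes had mixed signs. They ran from -1.53 to 0.54 for NSD1, from -0.27 to 0.51 for NSD3, and from -0.13 to 0.04 for SETD2.

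Of the enzymes that erase H3K36 methylation, KDM2B was lower in OPM2. KDM2B, a CpG island-binding demethylase that also recruits a variant PRC1, measured 3823 and 2960.6 in ARP1, 3477 and 3643 in OCI-MY5, and 1369.8 and 1835 in OPM2. Both OPM2 arrays lay below the other 4, by -1.12 ± 0.20 (log2, SE; limma adjusted p = 0.015). The drop was -1.40 among CD24+ arrays and -0.83 among CD24- arrays, and it kept its call with 3 of the 6 arrays left out: the ARP1 CD24-, OPM2 CD24+ and OPM2 CD24- arrays. It was lost without either OCI-MY5 array or the ARP1 CD24+ array. KDM2A, its paralogue, differed by 0.41 with overlapping arrays and did not pass.

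Of the 7 PRC2 members only EZH1 passed the threshold in OPM2 against the mean of the other lines. EZH2, the main H3K27 methyltransferase of dividing cells, measured 4934 and 4736 in ARP1, 5301 and 5963 in OCI-MY5, and 5919 and 6184 in OPM2. The OPM2 and OCI-MY5 arrays overlapped, and the OPM2 difference of 0.21 ± 0.15 (log2, SE) did not pass (limma adjusted p = 0.316). SUZ12, a scaffold subunit of PRC2, measured 9073 and 8463 in ARP1, 9022 and 9268 in OCI-MY5, and 11894 and 8737 in OPM2. Only the OPM2 CD24+ array exceeded the rest for SUZ12, and the other OPM2 array lay within the range of ARP1.

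EZH1, the second catalytic subunit of PRC2 and the one typical of resting cells, was lower in OPM2. Its intensity was 1578 and 1409.9 in ARP1, 997 and 913 in OCI-MY5, and 759 and 598 in OPM2. The 3 lines did not overlap, with ARP1 highest and OPM2 lowest. OPM2 differed from the mean of the others by -0.81 ± 0.17 (log2, SE; limma adjusted p = 0.024), a 1.75-fold drop. The difference from ARP1 alone passed, at -1.13 (limma adjusted p = 0.017), and the difference from OCI-MY5 alone, -0.49, did not (0.134). Of the 5 bright probe sets of EZH1, 3 were lower in OPM2, with differences from -0.93 to 0.30 over all 5. The call was kept without either OPM2 array and lost without any of the other 4.

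EED, which binds H3K27 trimethylation and stimulates PRC2, set OCI-MY5 apart instead. It measured 3815 and 3650.3 in ARP1, 6285 and 5784 in OCI-MY5, and 3633 and 4088 in OPM2. OCI-MY5 lay above both other lines, which overlapped. OPM2 minus OCI-MY5 was -0.64 with a limma adjusted p of 0.0497, at the edge of the threshold, and the comparison of OPM2 with both lines did not pass. With the other bright probe set of EED that difference was 0.63. RBBP4 and RBBP7, the histone-binding subunits, had both OPM2 arrays below the other 4, by -0.29 and -0.20, and neither passed. The 6 bright probe sets of RBBP4 did not share a sign and ran from -1.20 to 1.27. JARID2, a PRC2 cofactor, differed by 0.08, and by -0.41 on its other bright probe set.

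No PRC1 member passed the threshold in OPM2. Differences of the 5 measured subunits ran from -0.38 for RING1, a ubiquitin ligase, to 0.38 for PHC1, a polyhomeotic subunit. On the probe sets used, CBX2 and PHC1 had both OPM2 arrays above the other 4, and RING1 had both below. The other bright probe set of CBX2 had both OPM2 arrays below the other 4, by -0.86. That of RING1 overlapped, at -0.03, and that of PHC1 was higher, by 1.51. The probe set shared by BMI1, the PCGF subunit of canonical PRC1, and its readthrough measured 38719.5 and 47573 in ARP1, 44173 and 42013 in OCI-MY5, and 53698 and 35522 in OPM2. Its highest and its lowest value were both in OPM2.

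The H3K27 demethylases had their highest values in ARP1. KDM6B, which removes H3K27 trimethylation, measured 532 and 470.4 in ARP1, 245 and 310.0 in OCI-MY5, and 263 and 339 in OPM2. ARP1 lay above both other lines, which overlapped, and OPM2 did not differ past the threshold from the mean of the others (-0.30 ± 0.19, log2 and SE; limma adjusted p = 0.284). Its other bright probe sets differed by -0.07 and 1.18. KDM7A, a demethylase of H3K9 and H3K27, measured 1422 and 2002 in ARP1, 696 and 506 in OCI-MY5, and 477 and 583 in OPM2. Here too OPM2 and OCI-MY5 overlapped. KDM7A passed against the mean of both lines, at -0.91 ± 0.24 (log2, SE; limma adjusted p = 0.042), and against ARP1 alone, at -1.65. Against OCI-MY5 alone its difference was -0.17 (limma adjusted p = 0.685). KDM7A lost its call when any 1 of the 6 arrays was left out.

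KDM5B (chr1:202724495-202808421, minus strand, GRCh38.p14) gave the largest difference of any member. KDM5B removes di- and trimethylation of H3K4, the mark of active promoters. It measured 1327 and 968 in ARP1, 1202 and 1206 in OCI-MY5, and 128 and 86.9 in OPM2. Both OPM2 arrays lay far below the other 4, and ARP1 and OCI-MY5 overlapped. The difference was -3.28 ± 0.22 (log2, SE; limma adjusted p = 0.001), and it was -3.24 against ARP1 and -3.33 against OCI-MY5. It was -3.16 among CD24+ arrays and -3.41 among CD24- arrays. All 4 bright probe sets of KDM5B were lower in OPM2, by -4.45 to -1.05. The OPM2 values lay near the highest value of the bacterial TrpnX negative controls, 96.4, so the fold is measured against a level close to background. KDM5A, a paralogue of KDM5B, differed by -0.05 on its brightest probe set and did not pass, but its other 4 bright probe sets differed by -1.21 to -0.66. KDM1A, the flavin-dependent H3K4 demethylase, differed by 0.09.

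On the probe set used, KDM4B (chr19:4969113-5153598, plus strand, GRCh38.p14) gave the clearest rise. It is a demethylase of trimethylated H3K9 and H3K36 and measured 1619.8 and 1475 in ARP1, 1216 and 1116 in OCI-MY5, and 4288 and 4656 in OPM2. Both OPM2 arrays lay above the other 4, by 1.72 ± 0.15 (log2, SE; limma adjusted p = 0.002). The difference was 1.52 against ARP1 and 1.93 against OCI-MY5, and 1.60 among CD24+ and 1.85 among CD24- arrays. The other probe sets of KDM4B read smaller differences. Of the 5 bright ones 4 were higher in OPM2, at 0.51 to 1.72, and the one that was not measured 831 and 719 in ARP1, 459 and 777 in OCI-MY5, and 526 and 849 in OPM2. That probe set differed by -0.02. The size of the rise thus differed between probe sets of the same gene, and the choice among them took in the OPM2 arrays. Another bright probe set was slightly brighter on average over the ARP1 and OCI-MY5 arrays, and it differed by 0.58.

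**Figure D3:**
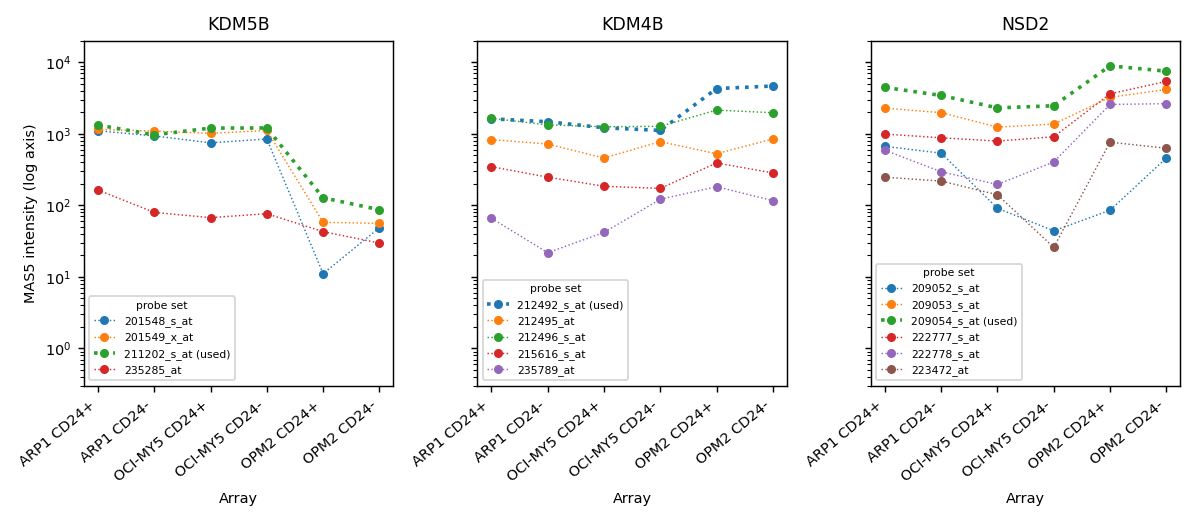
MAS5 intensity (log axis) of each bright probe set of KDM5B, KDM4B and NSD2 on the 6 arrays, with the one used for the gene as a thick line. The KDM5B probe sets fall together in OPM2, from 67.3 or more on each ARP1 and OCI-MY5 array to values of 11.1 to 128; those of KDM4B rise by unequal amounts and 1 does not rise.

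The promoters of KDM5B and KDM4B are shown because these were the members that fell and rose most among those past the threshold against each of the other lines. Each sequence is from RefSeq (GRCh38.p14), on the strand of the gene and 5′ to 3′, from 250 bases before to 50 bases after the gene's annotated start. Capitals mark matches on either strand to ACGTG, the core recognised by hypoxia-inducible factors, and to the E2F motifs TTTGGCGC and TTTCGCGC. The KDM5B window is chr1:202808372-202808671 (minus strand) and the KDM4B window is chr19:4968863-4969162 (plus strand).
KDM5B: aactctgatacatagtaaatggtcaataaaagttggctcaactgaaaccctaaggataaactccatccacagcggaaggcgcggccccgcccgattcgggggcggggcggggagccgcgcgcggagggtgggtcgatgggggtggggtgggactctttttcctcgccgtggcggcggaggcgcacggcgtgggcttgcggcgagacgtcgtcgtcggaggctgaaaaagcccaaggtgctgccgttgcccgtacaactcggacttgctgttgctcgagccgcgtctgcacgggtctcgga
KDM4B: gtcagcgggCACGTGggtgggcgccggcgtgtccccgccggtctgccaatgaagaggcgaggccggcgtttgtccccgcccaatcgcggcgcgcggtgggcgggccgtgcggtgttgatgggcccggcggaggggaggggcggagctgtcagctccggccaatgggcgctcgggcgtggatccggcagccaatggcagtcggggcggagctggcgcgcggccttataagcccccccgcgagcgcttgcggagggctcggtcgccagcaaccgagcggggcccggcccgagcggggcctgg
Neither motif was found in the KDM5B window. The KDM4B window held CACGTG once, near its upstream end, which reads as ACGTG on both strands. ACGTG was present in 21.4% of all 35093 promoters of that length and in 29.1% of 55 promoters of 36 tested members, and CACGTG in 7.26% and 16.4%. An E2F motif was present in 1.15% of all promoters and in 1 of the 55. Member promoters had a median of 31 CpG dinucleotides beside 14 in all promoters. The KDM5B window had 34 and the KDM4B window 43. A match of these letters is a description of the window and not a measured binding site.

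The H3K9 demethylases, KDM4B included, moved in both directions. KDM7A, which also acts on H3K27, was grouped with the H3K27 demethylases, and its OPM2 arrays overlapped OCI-MY5. On the probe sets used, the other 5 had OPM2 arrays that did not overlap the rest, 2 above and 3 below, beside 46.6% of all genes. The threshold was passed by 4 of them, beside 30.2%. With another bright probe set, KDM4A, KDM4B and KDM4C overlapped the rest, while KDM3B still lay below. KDM3A, an H3K9 demethylase known to be induced by low oxygen, measured 2094 and 2133 in ARP1, 1573 and 1498 in OCI-MY5, and 2948 and 2962 in OPM2. The 3 lines were separate, OPM2 highest, and OPM2 was higher by 0.71 ± 0.14 (log2, SE; limma adjusted p = 0.019). KDM3B, its paralogue, went the other way, at 2457 and 2825 in ARP1, 2662 and 2533 in OCI-MY5, and 1604 and 1455 in OPM2. ARP1 and OCI-MY5 overlapped and OPM2 lay below, by -0.77 ± 0.15 (log2, SE; limma adjusted p = 0.020). KDM4A, a paralogue of KDM4B with the same target lysines, measured 793 and 857 in ARP1, 577 and 806 in OCI-MY5, and 373 and 445 in OPM2. It was lower in both OPM2 arrays, by -0.85 ± 0.20 (log2, SE; limma adjusted p = 0.031). KDM4C, the third KDM4 enzyme tested, differed by -0.28 and did not pass, and its other bright probe set differed by 0.74. KDM3A and KDM3B kept their calls only without either OPM2 array, and KDM4A only without the OCI-MY5 CD24+ or the OPM2 CD24- array.

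Of 5 H3K9 methyltransferases, SUV39H2 passed in OPM2. SUV39H2, which trimethylates H3K9 in heterochromatin, measured 1956 and 2279 in ARP1, 3018 and 3005 in OCI-MY5, and 3519 and 4267 in OPM2. The lines were separate in the order ARP1, OCI-MY5, OPM2, and the OPM2 difference was 0.62 ± 0.17 (log2, SE; limma adjusted p = 0.046). It was kept only without the OPM2 CD24+ array, and a second probe set differed by 0.0045. EHMT1, which with EHMT2 dimethylates H3K9, had the largest difference that did not pass among them on the probe sets used. It measured 1988 and 2205 in ARP1, 1780.4 and 1854 in OCI-MY5, and 782 and 1617 in OPM2. Both OPM2 arrays were lowest but far apart from each other, and the difference was -0.78 ± 0.31 (log2, SE; limma adjusted p = 0.119). EHMT2, SETDB1 and SUV39H1 differed by -0.41, -0.30 and 0.45 on the probe sets used and overlapped between lines. The other bright probe set of SETDB1 had the opposite sign, at 0.99, with both OPM2 arrays above all ARP1 and OCI-MY5 arrays. That of EHMT2 differed by -0.62, with both OPM2 arrays below all of them.

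Among the 6 H3K4 methyltransferases, KMT2C and SETD1A passed as higher in OPM2. KMT2C, an enhancer H3K4 monomethyltransferase, measured 1642 and 1761 in ARP1, 2095 and 2135 in OCI-MY5, and 3265 and 2828 in OPM2. The lines were separate, and OPM2 was higher by 0.68 ± 0.15 (log2, SE; limma adjusted p = 0.028). Of its 4 bright probe sets 3 were higher in OPM2, and the call was kept only without the OPM2 CD24- array. SETD1A, a promoter H3K4 methyltransferase, was dim, at 38.5 and 45.7 in ARP1, 56.3 and 109 in OCI-MY5, and 363 and 164 in OPM2. Its 3 lowest values lay below the highest negative control, 96.4. SETD1A reached the brightness limit only through its OPM2 arrays, so its test as higher there is not independent of that limit. The SETD1A difference was 1.81 ± 0.39 (log2, SE; limma adjusted p = 0.024), and it was 2.59 among CD24+ arrays against 1.03 among CD24- arrays. It was kept only without the OCI-MY5 CD24- or the OPM2 CD24- array. KMT2A, KMT2B, KMT2D and SETD1B differed by -0.10, -0.28, 0.12 and 0.49 on the probe sets used, and none passed. The other bright probe sets of KMT2A had mixed signs and ran from -1.96 to 0.90. Those of KMT2D differed by 0.42 and 0.40.

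DOT1L, the main H3K79 methyltransferase, was higher in OPM2. It measured 472 and 364 in ARP1, 720.1 and 559 in OCI-MY5, and 1549.9 and 1022 in OPM2. The lines were separate in the order ARP1, OCI-MY5, OPM2. OPM2 was higher by 1.27 ± 0.25 (log2, SE; limma adjusted p = 0.020), by 1.38 among CD24+ arrays and 1.15 among CD24- arrays. Another bright probe set of DOT1L differed by -0.10, and the call was kept only without the OPM2 CD24- array. KMT5A, the H4K20 monomethyltransferase, measured 1271 and 584 in ARP1, 511 and 698 in OCI-MY5, and 3016 and 893 in OPM2. Its OPM2 arrays lay on both sides of an ARP1 array, and the difference of 1.18 ± 0.58 (log2, SE) did not pass (limma adjusted p = 0.185). The other bright probe sets of KMT5A differed by 0.07 to 0.80.

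Set against each line singly, with the OPM2 arrays shared, KDM2B, KDM3B, KDM4B and KDM5B passed in both comparisons. The share of all genes that passed in both is not given here, so this number of members has no background beside it. Against ARP1 alone 11 members passed, beside 25.1% of all genes, and against OCI-MY5 alone 6 did, beside 26.2%. SUV39H2, KMT2C, EZH1, KDM7A, DOT1L, KDM4A and SETD1A passed against ARP1 and not against OCI-MY5, and EED and KDM3A the reverse. Whether those 9 differ between the comparisons was tested only as ARP1 against OCI-MY5, in which none of the 40 members passed, beside 2.72% of all genes. At an unadjusted p below 0.05 there were 11, beside 23.6% of all genes. The largest of these differences were 1.48 for KDM7A (limma adjusted p = 0.064), 1.17 for CBX7 (0.147), 0.94 for JARID2 (0.068) and -0.92 for KMT2A (0.068). JARID2 measured 1309 and 1392 in ARP1, 638 and 762 in OCI-MY5, and 1060.3 and 989 in OPM2, so that OPM2 lay between the others. KMT2A is an H3K4 methyltransferase whose gene is rearranged in acute leukaemia. It measured 669.9 and 725 in ARP1, 1285 and 1389.7 in OCI-MY5, and 833 and 978 in OPM2, again with OPM2 between the others. With another bright probe set of each gene OPM2 overlapped OCI-MY5. For JARID2 these were 715 and 621 in OPM2 beside 682 and 652 in OCI-MY5. For KMT2A they were 877 and 630 beside 698 and 713.

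Between CD24+ and CD24- cells no member passed the threshold with limma, and no member had an unadjusted p below 0.05, beside 0 of all genes adjusted and 1.22% unadjusted. With the line as a block no member passed after adjustment either, and CBX7 and DOT1L had an unadjusted p below 0.05 (0.015 and 0.045), beside 4.63% of all genes. The median difference of the members was -0.0015 on the log2 scale, and that of all genes 0.03. CD24+ was higher in all 3 lines for 4 members on the probe sets used, beside 16.9% of all genes, and lower for 5, beside 12.2%. Together these were 22.5% of the members and 29.1% of all genes, so the share of the members was not above the background.

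CBX7, the PRC1 subunit that binds H3K27 trimethylation, had the steadiest difference. It measured 439 and 308 in ARP1, 206 and 115 in OCI-MY5, and 271 and 175 in OPM2, higher in CD24+ in each line. The differences were 0.49, 0.76 and 0.59 on the log2 scale, 0.61 ± 0.14 (SD, n = 3 lines), and the spread between lines was wider than the difference between fractions. The limma adjusted p was 0.99996, and 0.85 with the line as a block. On the probe sets used DOT1L was higher in CD24+ by 0.36, 0.36 and 0.59, EZH1 by 0.16, 0.12 and 0.34, and SUV39H1 by 0.18, 0.02 and 0.71. The other bright probe set of DOT1L was lower in CD24+ in OCI-MY5, at 299 and 416, and higher in ARP1 and OPM2. Those of EZH1 disagreed. One was lower in CD24+ in each line, at 300 and 308, 59.1 and 104, and 42.9 and 126, and another was higher in each line. SUV39H1, a heterochromatin H3K9 methyltransferase, measured 955 and 844 in ARP1, 888 and 876 in OCI-MY5, and 1563 and 949.8 in OPM2, so that its difference lay mostly in OPM2.

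Lower in CD24+ in each line, on the probe sets used, were KDM2A, KMT2A, KDM4A, PHC2 and EHMT1. KDM2A measured 1187 and 1609 in ARP1, 1714 and 1883 in OCI-MY5, and 1671.5 and 2623 in OPM2, with differences of -0.43, -0.13 and -0.64. PHC2, a polyhomeotic PRC1 subunit, measured 1032 and 1324 in ARP1, 791 and 827 in OCI-MY5, and 893 and 1182 in OPM2, with differences of -0.35, -0.06 and -0.40. KMT2A differed by -0.11, -0.11 and -0.23 and KDM4A by -0.11, -0.47 and -0.25. Fractions of the members overlapped across lines in each of these cases. Another bright probe set of KDM2A was higher in CD24+ in each line. It measured 426 and 418 in ARP1, 395 and 371 in OCI-MY5, and 587 and 412 in OPM2. Another of KMT2A was higher in CD24+ in ARP1 (330 and 238) and OPM2 (877 and 630), and lower in OCI-MY5 (698 and 713). The other bright one of KDM4A was higher in OPM2 (508 and 377) and lower in ARP1 and OCI-MY5. At least 2-fold apart between fractions, on the probe sets used, were KMT5A in ARP1 (1.101) and no member in OCI-MY5. In OPM2 they were KMT5A (1.74), SETD1A (1.08) and EHMT1 (-1.03). That is 1, 0 and 3 members beside 5.04%, 5.69% and 18.2% of all genes in these lines. The other bright probe sets of KMT5A measured 732 and 290, 360 and 307, and 421 and 408 in ARP1. In OPM2 they measured 707 and 602, 737 and 464, and 339 and 371.

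**Figure D4:**
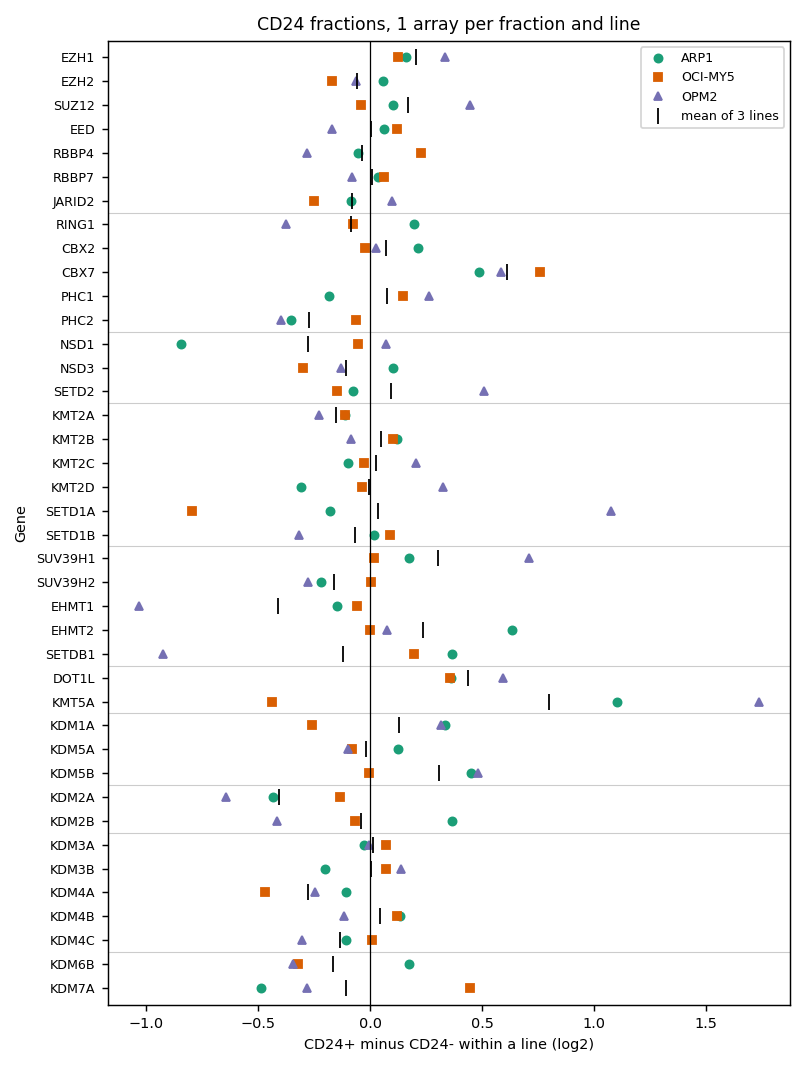
CD24+ minus CD24- difference of each member in ARP1, OCI-MY5 and OPM2 (log2, 1 array per fraction and line), with the mean of the 3 lines as a vertical bar. Points lie on both sides of 0 for most genes. CBX7 lies to the right in all 3 lines, at 0.49 to 0.76, and KDM2A to the left on the probe set used. Another bright probe set of KDM2A went the other way in all 3 lines.

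Further genes of these pathways were read from 7 lists of 64 tested genes, of which 7 rose and 11 fell in OPM2, beside 12.7% and 17.5% of all genes. Among PRC2 accessory subunits 0 of 6 rose and 2 fell. PHF19, which brings PRC2 to H3K36-methylated chromatin, measured 12685 and 10411 in ARP1, 5006 and 4361 in OCI-MY5, and 3232 and 3575 in OPM2. It was highest in ARP1 and lowest in OPM2, with -1.10 for OPM2 (limma adjusted p = 0.010) and 1.30 for ARP1 against OCI-MY5 (limma adjusted p = 0.047). AEBP2, another PRC2 subunit, differed by -1.10. Of 14 further PRC1 subunits 1 rose, SCML2 by 2.43, and 2 fell, PCGF2 by -2.31 and PCGF3 by -0.62. ASXL1, the partner of the H2A deubiquitinase BAP1, rose by 2.10, from 882 and 921 in ARP1 and 1328 and 1182 in OCI-MY5 to 5071 and 4208 in OPM2, as 1 of 2 tested genes of that complex.

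COMPASS, the complex that holds the KMT2 and SETD1 enzymes, had 3 of 12 tested subunits higher and 3 lower in OPM2. RBBP5 rose by 0.79 and NCOA6 by 0.75, and WDR5 differed by -1.91 and DPY30 by -0.99. WDR5, RBBP5 and DPY30 are part of the core shared by all KMT2 and SETD1 complexes, and they differed in both directions. WDR5 and DPY30 also passed against each line singly. RBBP5 did not, against ARP1 (limma adjusted p = 0.065) or OCI-MY5 (0.051). Other probe sets and fits without 1 array are not given for the genes of these further lists. Of 12 other methyltransferases none rose and 4 fell, among them SMYD5 (-1.72) and SMYD3 (-1.14). The OPM2 values of SMYD5, 20.7 and 87.8, lay below the highest negative control, so its difference is set against background. Of 9 other demethylases JMJD1C rose, by 0.68, and none fell. Of 9 readers and partners of H3K9 methylation CDYL rose, by 0.82, and none fell.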

How the data were processed

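RNA of 6 samples, the CD24+ and CD24- fractions of 3 myeloma cell lines, was hybridised to Affymetrix U133 Plus 2.0 arrays, 1 array per sample, from 100 ng of total RNA per the labels' protocols. The deposited table holds linear MAS5 intensity values, which the authors computed with Affymetrix Expression Console 1.1, per the submitters' processing notes. MAS5 subtracts an estimate of mismatch signal and scales each array by 1 factor; the mean without the outer 2% of values was 500.1 on each array. A probe set named for several genes was left out, which removed BMI1. Of 54675 probe sets, 41091 had 1 gene symbol and 41037 of these matched RefSeq GRCh38.p14 by Entrez ID.

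The brightest probe set on average over the 6 arrays stood for each gene. The 12067 genes with a mean log2(intensity + 16) of 6.36 or more, which is the median probe set, entered two-sided moderated tests (limma 3.58.1, lmFit followed by eBayes, R 4.3.3). P-values were adjusted over all of these genes by the Benjamini-Hochberg method, with a threshold of 0.05. Lines were compared with 3 line means, and the CD24 fractions without a block, since the series' design text states no pairing. Sample numbers in the titles stand for the lines: deviations from the fraction means correlated at 0.70, 0.71 and 0.77 within lines and at -0.58 to 0.15 between them, so the numbers pair the samples. The tests were checked on simulated data. Alternatives were other pseudocounts, brightness limits, scalings, probe set choices, an intensity trend, a fraction term, a size limit, the line as a block, and each array or line left out. The small number of arrays limits the precision; raw scanner files were not used here.

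The members and lists were chosen with earlier results of these data known. Values on every array are given for the main H3K27 and H3K36 enzymes, for members past the threshold in OPM2 (up to 8 each way) and for up to 4 members each way with 1 sign in all 3 lines between fractions; up to 2 genes each way are named from each further list. RNF2, CBX8 and ASH1L were not analysed here.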

Additional observations from a re-analysis of the deposited data

How the results depend on the processing

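In OPM2 against the mean of the other lines, 15% of the members differed at least 2-fold, past the threshold or not, beside 25.7% of all genes. The share of all genes both past the threshold and at least 2-fold apart is not given. In that comparison 12 members passed the threshold (30.2% of all genes). The count was 2 with no filter on dim genes (10.8% of all genes), 6 with the mean of all probe sets (25.1%), 5 where a difference of at least 2-fold was also asked, and 2 to 14 with 1 array left out (14.8% to 39%). Against ARP1 alone (11 members) it was 3 with no filter (7.23%), 7 with the mean of all probe sets (20.4%), 7 with the CD24 fraction as a term (19.9%), and 1 to 16 with 1 array left out (5.87% to 34.7%). Against OCI-MY5 alone (6 members) it was 2 with no filter (8.29%), 3 with the mean of all probe sets (21.3%), 12 when genes had to reach the 75th percentile of brightness (41.7%), and 2 to 13 with 1 array left out (7.73% to 37.6%). Between ARP1 and OCI-MY5 (0 members) it was 3 with a pseudocount of 64 (6.06%), 5 at the 75th percentile of brightness (16.8%), 1 with the mean of all probe sets (1.27%), 5 with an intensity trend (11.4%), and 0 to 3 with 1 array left out (0% to 8.92%). The median OPM2 difference of 0.076 became 0.22 with arrays centred on their median, which moved the median of all genes to 0.14, and -0.024 with probe sets of 1 transcript preferred. The median ARP1 minus OCI-MY5 difference of 0.086 became 0.029 at the 75th percentile of brightness and -0.018 with centring, and ran from 0.033 to 0.10 with 1 array left out. The median share of the sum of squares that lay between lines fell from 86.1% to 67.8% with the mean of all probe sets. With a line left out, the members of 1 sign across fractions numbered 17 to 21 in place of 9, because fewer lines had to agree. With probe sets of 1 transcript preferred, the difference of KDM4B turned to -0.024 (to -0.20 against ARP1) and that of EED against OCI-MY5 to 0.63. Between fractions, leaving out 1 array changed the sign of some members: the differences ran from -0.025 to 0.82 for DOT1L, -0.095 to 0.51 for EZH1, -0.41 to 0.087 for KMT2A, and -0.57 to 0.0020 for KDM4A. With the replicate block, which takes the line as a block, no member passed either, and no other call changed. The cause of the other changes was not tested. KDM5B kept its call under 15 of 16 alternatives, KDM4B under 14 and NSD2 under all 16; KDM5B differed by -1.05 with probe sets of 1 transcript preferred, at a limma adjusted p of 0.056, and KDM4B by 0.56 with the mean of all probe sets, at 0.094.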
